A study of Mus musculus with 5 samples.

Results

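The regions described here are 963 bins of 1 kb, out of 2297452 autosomal bins with a read in any library, at which a methyl-DNA capture released far more DNA with 800 mM than with 600 mM NaCl. They were chosen by the measured reads of the 2 eluates: a bin belongs to the set if (800 mM RPM + 0.5)/(600 mM RPM + 0.5) was 8 or more on chromosomes 1 to 19, where RPM is reads per 1000000 reads of the library. They are called 800 mM-high bins below, and they made up 0.0419% of the bins tested.

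All libraries came from mouse embryonic stem cells kept on serum and leukaemia inhibitory factor in the absence of feeder cells. The 4 enriched libraries were made from E14 gene-trap clones of the SIGTR library; how many clones each library holds is not stated. MethylCap-seq bound sonicated genomic DNA to a His6-GST-tagged methyl-CpG binding domain (MBD) on magnetic beads and eluted it at 600 mM NaCl (10495409 reads) or 800 mM NaCl (7539403 reads). MeDIP used an antibody to 5-methylcytosine (5mC; 10487251 reads) and hMeDIP an antibody to 5-hydroxymethylcytosine (5hmC; 18563204 reads). The input (18722723 reads) was sequenced from chromatin of the TNG-A line, derived from E14 and carrying EGFP at Nanog, so it differs from the enriched libraries in cell line and preparation. There was 1 library per group, so every difference below is between libraries, without a replicate check, and each interval covers counting error alone. Positions are in mm9.

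The MBD is the part of methyl-CpG binding proteins that recognises methylated CpG in double-stranded DNA. Salt weakens this contact, so a rising salt series is used to release first fragments with few methylated CpGs and later those with many. The 5mC antibody, by contrast, reads methylated cytosines in denatured DNA, and the 5hmC antibody reads their oxidised form, which the Tet enzymes make and which MBD proteins of this type bind poorly.

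The values that chose the bins are given as a description. The ratio of the 800 to the 600 mM eluate ran from 8 to 180.0 with a median of 12.2, and 668 bins were at 10 or more, 272 at 16 or more and 51 at 32 or more. The bins held 27 to 1078 reads at 800 mM (median 72) and 0 to 31 reads at 600 mM (median 3). Summed over the set, 90963 reads at 800 mM stood against 3862 at 600 mM, 32.8-fold after scaling to library size (31.8 to 33.9). The set held 1.21% of the 800 mM reads and 0.0369% of the 600 mM reads. By the same choice, 954 bins were at 3-fold or more over input at 800 mM, where 4.52% of all bins were, and 6 were at 600 mM, where 3.52% of all bins were.

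At the threshold the counts were modest. The 3 bins just inside it each held 55 reads at 800 mM and 5 at 600 mM, and they lay on chromosome 1 at 93452001–93453000 and 180182001–180183000 and on chromosome 6 at 120433001–120434000. The 3 bins just outside each held 32 reads at 800 mM and 1 at 600 mM. The number of bins depended on the settings: it was 3772 with a pseudocount of 0.1 RPM, 450 with 1 RPM, 2868 at a ratio of 4 and 272 at a ratio of 16.

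The description "released only at 800 mM" was checked against the 600 mM reads. Of the 963 bins, 187 (19.4%) had no 600 mM read, against 31.1% of all autosomal bins, and 776 had at least 1. The median was 3 reads in the set and 2 over all autosomal bins. Over the set the 600 mM eluate was at 0.645-fold of input (0.622 to 0.669), against 1.03-fold over all autosomal bins. The low 600 mM fold follows from the choice of the bins and is no result of its own. By read count, the word "only" does not describe the 776 bins with a 600 mM read. Whether those reads stand above background was not tested.

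For comparison, 16898 autosomal bins were taken that held at least 27 reads at 800 mM, as the set does, and whose ratio lay between 0.5 and 2. These are called shared bins, since both eluates are high there: summed reads were 10.7-fold over input at 800 mM and 8.72-fold at 600 mM. Bins of the set held more 800 mM reads (median 72 against 31), so measures that depend on depth are also given for bins with at least 50 reads at 800 mM, 735 of the set and 685 shared.

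The strongest bins show the form of the signal. On chromosome 13 at 118062001–118063000, the 800 mM eluate held 672 reads while the 600 mM eluate had no read. With the 600 mM count set to a floor of 3 reads, the 800 mM eluate was 312.2-fold higher. The lower end of the interval, from the counts without this floor, was 253.2. Its 10 steps of 100 bp held 57, 76, 66, 70, 91, 68, 110, 94, 40 and 0 reads at 800 mM. The reads filled the first 9 steps at similar height and then stopped. MeDIP held 1 read there, hMeDIP 4 and the input 9.

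On chromosome 11 at 75578001–75579000 the 800 mM eluate had 1078 reads and the 600 mM eluate 9, a 166.9-fold difference (87.6 to 366.1). The steps held 0, 0, 0, 39, 117, 184, 190, 179, 213 and 156 reads, so an empty stretch gave way to a high plateau within 200 bp. MeDIP held 9 reads, hMeDIP 41 and the input 12.

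A bin on chromosome 15 at 76735001–76736000 was broken into separate pieces. Its steps held 90, 0, 39, 121, 70, 0, 0, 0, 1 and 0 reads at 800 mM, 321 in all, and the 600 mM eluate had no read. With the same floor the 800 mM eluate was 149.1-fold higher (lower end of the interval, without the floor, 120.6). The step at 90 reads and the one at 39 were separated by an empty step. MeDIP held 1 read, hMeDIP none and the input 14.

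Another broken bin lay on chromosome 1 at 88247001–88248000, where 508 reads of the 800 mM and 4 of the 600 mM eluate fell. Its steps held 44, 98, 92, 1, 130, 83, 2, 0, 1 and 57 reads. Unlike most of the set, it was high with the 5hmC antibody, with 66 hMeDIP reads against 12 in the input (ratio 3.56) and 13 MeDIP reads (ratio 1.53). Ratios of single bins, here and below, carry the pseudocount and so lie closer to 1 than the raw folds. The bin before it, at 88246001–88247000, held 288 reads at 800 mM and none at 600 mM, with 6 hMeDIP and 25 input reads (ratio 0.448). This pair of neighbours was high at 800 mM in both bins and differed in hMeDIP.

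The other 5 of the 10 bins with the highest ratio held 258 to 437 reads at 800 mM and 0 to 3 at 600 mM. Those on chromosome 7 at 118214001–118215000 and 118215001–118216000 are neighbours, with 273 and 258 reads at 800 mM and none at 600 mM. Their hMeDIP ratios were close, at 0.591 and 0.540. The first of those on chromosome 2, at 144076001–144077000, had 417 reads at the higher salt, 1 at the lower and none in MeDIP. A second bin of chromosome 2, at 153513001–153514000, had 437 reads at 800 mM and 3 at 600 mM, with 142 of the 437 in a single step. The bin at 69730001–69731000 of chromosome 11 had 309 and 1 reads in the eluates and none in MeDIP. None of the 10 bins reached 2-fold over input in MeDIP, and 2 of them did so in hMeDIP.

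**Figure D1:**
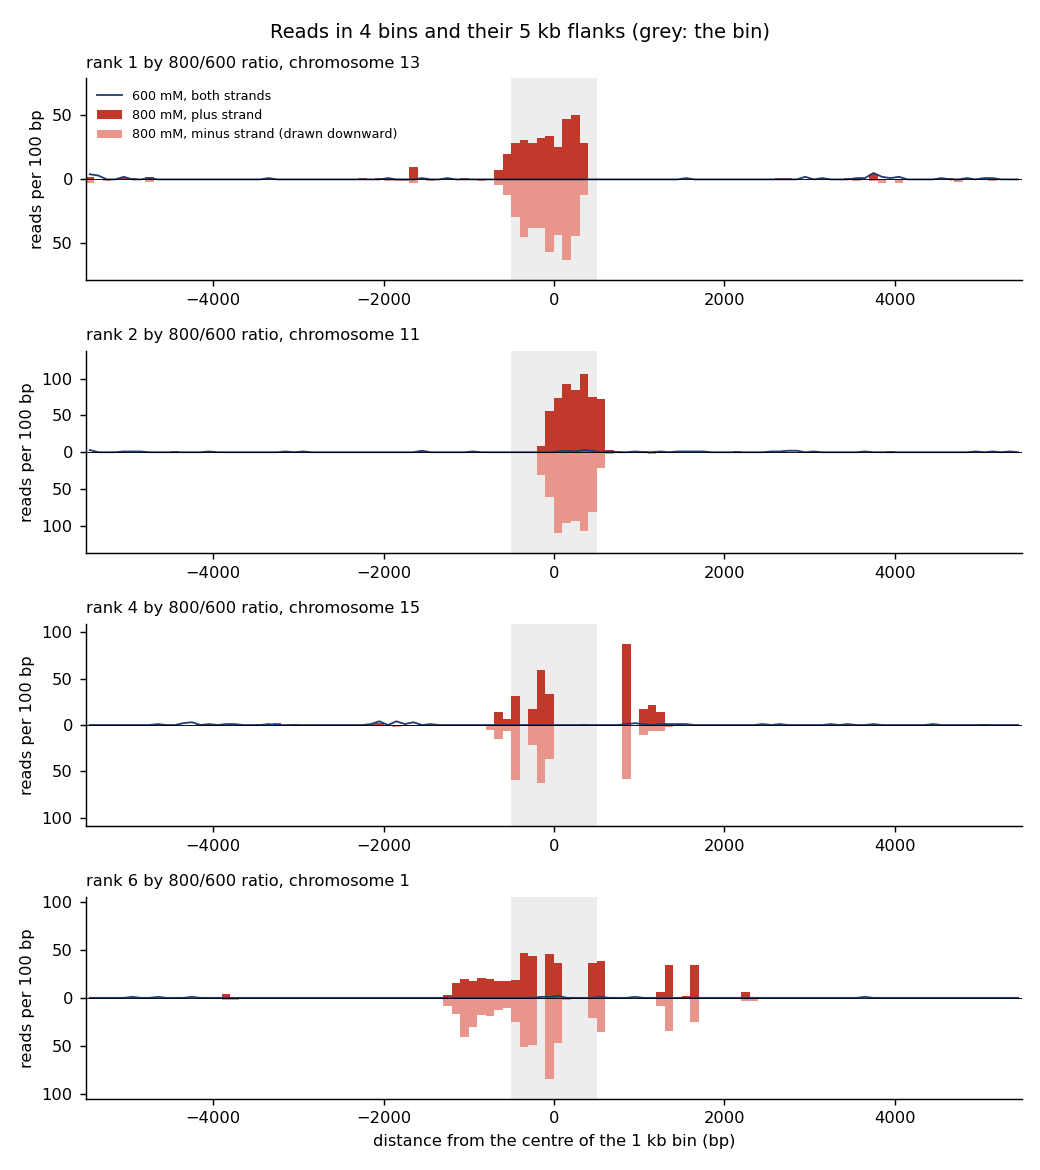
Reads per 100 bp over 4 of the 10 bins with the highest 800 to 600 mM ratio (grey) and 5 kb on each side, with distance from the bin's centre on the x axis; 800 mM reads of the plus strand point up and of the minus strand down, and the line is the 600 mM eluate. The 800 mM reads form blocks with abrupt ends and empty stretches between them, both strands cover the same stretch, and the 600 mM line stays low.

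Width was measured in 100 bp steps, as the run of consecutive steps around the fullest step of the bin (the summit) that held at least 50% of its reads. The median width was 200 bp, with quartiles of 200 and 400 bp and a range of 100 to 1200 bp. In 228 bins (23.7%) the run was a single step and in 521 (54.1%) it was 200 bp or less, while 108 (11.2%) exceeded 500 bp. Among bins with at least 50 reads the median was 200 bp in the set and 300 bp in shared bins. The shortest stretch with 80% of the 800 mM reads of a bin and 1 kb on each side was longer, at a median of 700 bp, since many bins held more than 1 block.

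The narrowest bins with at least 50 reads combined a sharp step with further blocks. On chromosome 7 at 54110001–54111000, 202 of 491 reads at 800 mM lay in 1 step, between neighbours of 59 and 96 reads. On chromosome 7 at 13511001–13512000, a step of 144 reads stood between steps of 3 and 2 reads, and the last 3 steps held 70, 37 and 50 reads. On chromosome 11 at 48617001–48618000, a step of 150 reads was followed directly by an empty one. At the other end, the widest runs were low and could extend past the edge of the bin. On chromosome 9 at 44550001–44551000 the width was 1000 bp and no step held more than 12 reads, and on chromosome 15 at 36170001–36171000 it was 900 bp with at most 20 reads per step. On chromosome 13 at 94972001–94973000 the width was also 1000 bp, although the last 5 steps of the bin were empty.

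Abrupt edges were common in the set. A step of 10 or more reads lay directly beside a step with none, within the bin or 1 kb of it, in 406 of 963 bins (42.2%). Among bins with at least 50 reads this was so for 323 of 735 bins of the set (43.9%) and 102 of 685 shared bins (14.9%). At least 5 of the 10 steps were empty in 22.7% of the former and 7.45% of the latter, and the fullest step held a median of 31.2% and 20.8% of the bin's reads. The 2 groups of bins still differ in depth and in the signal of the 600 mM eluate, and the part of either in these shares was not tested.

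Most empty steps were covered by other libraries. In the whole set, 3238 of 9630 steps had no 800 mM read, and 80.8% of these held a read of another library. Input reads lay in 62.2% of the empty steps and in 63.1% of the others, so input coverage was about the same in both kinds of step. The enriched libraries covered the empty steps less often: MeDIP reads lay in 19.2% of them and 29.0% of the others, hMeDIP reads in 39.4% and 49.6%, and 600 mM reads in 15.8% and 30.2%. These shares pool the steps of all bins. At least 5 steps were empty in 30.2% of the whole set and in 22.7% of its bins with at least 50 reads. The part of such differences between bins in these shares was not tested.

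Blocks were also counted, as runs of steps with at least 4 reads at 800 mM. Blocks that touched a bin of the set had a median length of 400 bp (quartiles 200 and 700 bp), and the longest spanned 1600 bp. In shared bins the median was 200 bp. Among bins with at least 50 reads it was 500 bp in the set and 400 bp in shared bins, so by this measure the set was not narrower. Within the bin and its 5 kb flanks, 862 bins (89.5%) had 2 or more blocks, 377 (39.1%) had 5 or more, and the largest number was 15. Among shared bins, 98.0% had 2 or more and 73.5% had 5 or more. With at least 50 reads, 42.7% of the set and 78.7% of shared bins had 5 or more.

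The strands gave a second difference in form. When sheared fragments are read from their 5′ ends, plus and minus reads start at opposite ends of the fragments, so the distance between their 5′ ends peaks near the fragment length. In shared bins this distance was commonest in the 20 bp class that starts at 240 bp in the 800 mM eluate and at 260 bp in the 600 mM eluate. In the 800 mM-high bins there was no such peak, the commonest class started at 20 bp (8.01% of pairs), and the shares of later classes fell one after another. With each bin weighted equally, pairs from 220 to 280 bp were 0.559 times as frequent as pairs from 100 to 160 bp in the set, and 1.58 times in shared bins. Other libraries in the same 800 mM-high bins lay between these values, at 0.901 times for the input and 0.847 times for hMeDIP. Their commonest class in these bins started at 180 bp in the input and at 80 bp in hMeDIP. In hMeDIP the class from 180 bp was nearly as frequent (4.38% against 4.39% of pairs). Neither library was measured this way in shared bins. The part of the bins and of the library in the contrast was therefore not tested. Whether the blocks coincide with annotated features, such as exons, or with the sequence of the DNA was not tested, as no mm9 annotation or genome was used here, so the blocks are described by reads alone. The 2 strands were equally frequent, with 49.98% of the set's 800 mM reads on the plus strand.

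**Figure D2:**
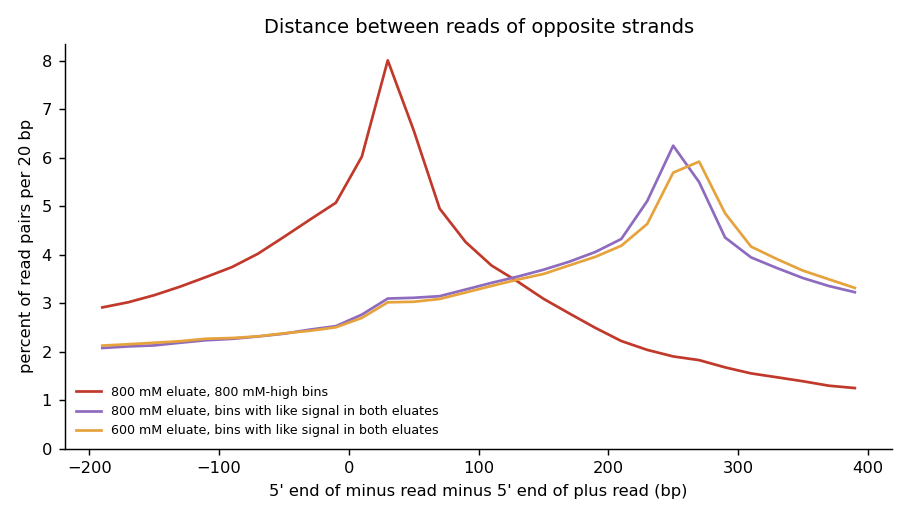
Distance from the 5′ end of a plus read to that of a minus read (x axis, in bp), as a percentage of pairs per 20 bp with each bin weighted equally (y axis), for the 800 mM-high bins and the shared bins. The shared bins peak in the classes from 240 bp (800 mM) and 260 bp (600 mM), whereas the 800 mM-high bins peak in the class from 20 bp.

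The antibody reads were not part of the choice, but the 600 mM reads were. The 600 mM eluate was at 0.645-fold of input over the set and at 8.72-fold over shared bins. How much of the antibody folds below follows from this difference was not tested. The 5mC antibody gave 3944 reads over the 963 bins, 0.660-fold of input (0.636 to 0.685), where all autosomal bins were at 1.03-fold and shared bins at 5.69-fold. The median of the single-bin ratios was 0.725, against 0.898 over all bins and 2.98 over shared bins. In 122 bins (12.7%) there was no MeDIP read, a smaller share than the 17.8% of all bins. Below input were 693 bins (72.0%), against 61.4% of all bins. MeDIP reached 3-fold in 10 bins (1.04%), where 2.64% of all bins did, so the share with 5mC antibody signal was not raised in this set. Of the shared bins, which were also high at 800 mM, 49.4% reached 3-fold in MeDIP.

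The 5hmC antibody gave 9898 reads, 0.934-fold of input (0.909 to 0.960), against 1.03-fold over all bins and 3.71-fold over shared bins. It reached 3-fold in 14 bins (1.45%), where 2.04% of all bins did, and 1 bin reached 3-fold with both antibodies. The direction of the summed fold depended on the threshold, and it was 1.04-fold at a ratio of 4. Compared directly, hMeDIP was 1.42-fold of MeDIP over the set after scaling (1.36 to 1.47), 0.998-fold over all bins and 0.652-fold over shared bins. The hMeDIP ratio was the higher one in 636 bins (66.0%), against 49.97% of all bins.

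The input itself was denser in these bins, and this enters each fold. It held 11.1 reads per bin, against 7.77 over all autosomal bins and 7.97 over shared bins. MeDIP held 4.10 reads per bin against 4.47 over all bins, and hMeDIP 10.3 against 7.90. Before division by input, MeDIP was thus close to its genome-wide level and hMeDIP above it. The part of the input's density, and of its different preparation, in the low folds was not tested.

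**Figure D3:**
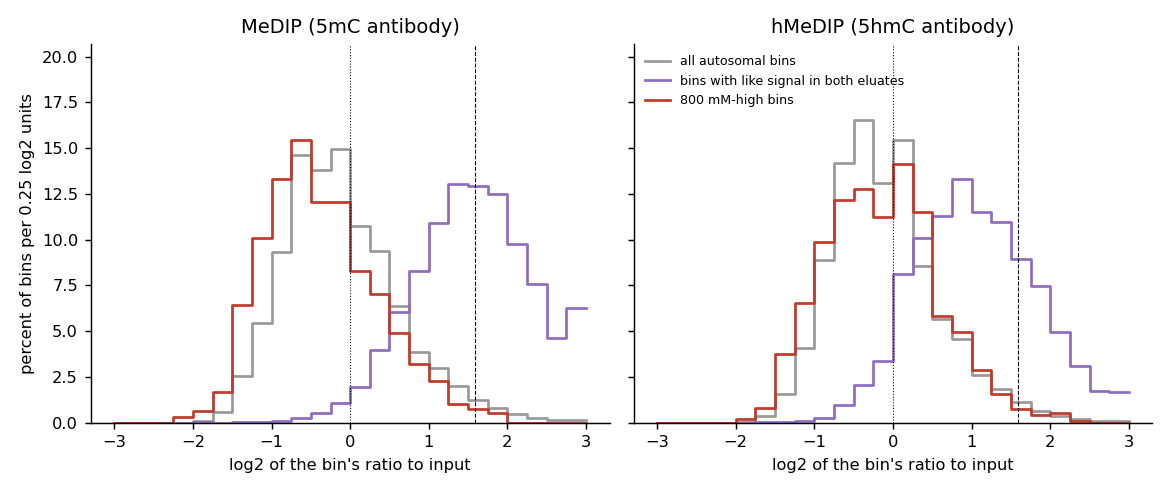
Distribution of single-bin ratios to input (x axis, log2, values beyond 3 in the end classes) for the 5mC antibody and the 5hmC antibody, as a percentage of bins per 0.25 log2 units; the dotted line is the input level and the dashed line 3-fold. The 800 mM-high bins lie with the bulk of autosomal bins, slightly lower in MeDIP, while the shared bins lie to the right.

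The flanks were followed outward from the bins. Over the 8118 bins within 5 kb that are not themselves in the set, MeDIP was at 0.925-fold of input (0.915 to 0.936) and hMeDIP at 1.15-fold (1.14 to 1.16). MeDIP was 0.879-fold and 0.849-fold in the bins 1 kb before and after, 0.891-fold and 0.780-fold at 2 kb, and 0.993-fold and 1.03-fold at 10 kb. Between 5 and 50 kb away it was 1.10-fold and hMeDIP 1.24-fold. Within 10 kb, both antibodies were lowest in the bin itself. For MeDIP the flanks were above input (1.05-fold) when bins at a ratio of 4 were used, and 0.754-fold at a ratio of 16.

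Summed over bins, the 800 mM signal faded over the same distance. It was 21.2-fold over input in the bins, 2.88-fold and 3.07-fold in the bins 1 kb before and after, and 1.36-fold and 1.27-fold at 5 kb. Over all flank bins within 5 kb the summed 800 mM eluate was 1.76-fold over input, but the median single-bin ratio was 0.903. Of these flank bins 55.2% were below input and 11.6% reached 3-fold. From 5 to 50 kb away the eluates did not stand apart, at 1.31-fold for 800 mM and 1.30-fold for 600 mM.

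At finer scale the profiles were aligned on the summit of each bin. Within 200 bp of the summit the 800 mM eluate was 36.5-fold over input, from 500 to 1500 bp away it was 4.76-fold and from 2 to 4 kb 1.94-fold. MeDIP was 0.704-fold (0.670 to 0.741), 0.789-fold (0.771 to 0.808) and 0.864-fold (0.850 to 0.879) over the same distances. hMeDIP was 0.975-fold, 1.10-fold and 1.11-fold. The 600 mM eluate was at 0.751-fold near the summit and at 1.05-fold from 500 to 1500 bp, but its low values inside the bin follow from the choice. Neither antibody showed a peak under the 800 mM summit.

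**Figure D4:**
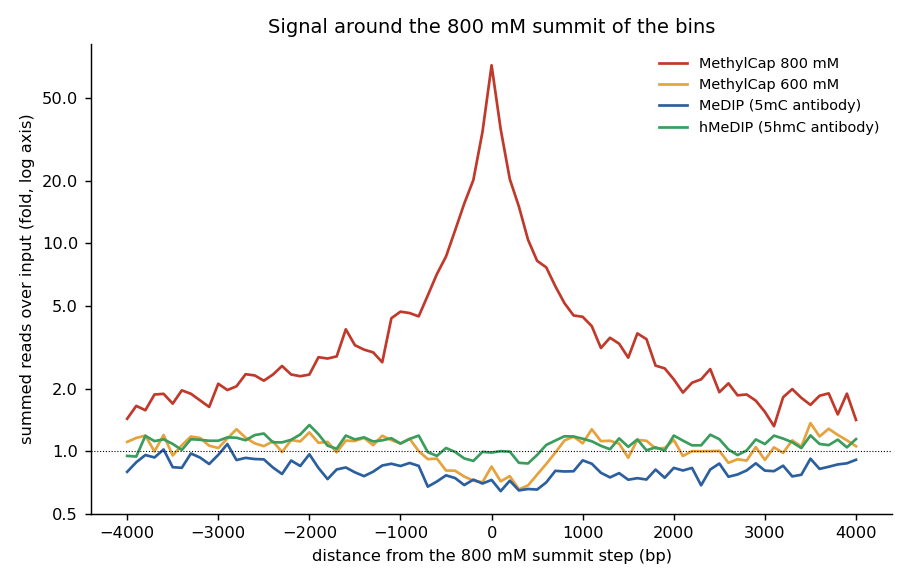
Summed reads over input (y axis, log scale) in 100 bp steps by distance from the 800 mM summit (x axis, bp) over the 963 bins, for the 4 enriched libraries. The 800 mM eluate rises to 71.9-fold in the summit step, which was picked as the fullest, while MeDIP (0.704-fold) and hMeDIP (0.975-fold) show no peak within 200 bp of it.

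The bins differed among themselves in antibody signal. Ordered by 800 mM reads and divided into 4 groups of 240 or 241, the MeDIP fold over input was 0.389, 0.574, 0.739 and 0.963 from the fewest to the most reads. The hMeDIP fold was 0.564, 0.885, 0.928 and 1.39 (1.32 to 1.47 in the last group). The 600 mM fold rose alongside, from 0.135 to 1.30, as the rule lets bins with more 800 mM reads hold more 600 mM reads. The order thus uses counts that the choice used. How much of the antibody differences between the 4 groups follows from the rule was not tested. In the 187 bins with no 600 mM read, MeDIP was at 0.274-fold (0.244 to 0.307) and hMeDIP at 0.446-fold (0.414 to 0.480), with flanks at 0.594-fold and 0.817-fold. These 187 bins are defined by a count that the choice used, and they also had fewer 800 mM reads (median 46 against 72) and denser input (12.4 against 11.1 reads per bin) than the whole set. The part of these in their low antibody folds was not tested.

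Width went with smaller differences. Bins of up to 200 bp were at 0.588-fold in MeDIP (0.558 to 0.620) and 0.882-fold in hMeDIP, and the 108 bins over 500 bp were at 0.870-fold (0.786 to 0.963) and 1.06-fold. The median 800 mM reads of these groups were 68 and 80.

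A few bins of the set carried antibody signal. The bins named by antibody are the 5 highest among those with at least 5 input reads, since a ratio on fewer is less certain. Bins under that minimum are passed over, among them 1 on chromosome 5 at 21167001–21168000 with a MeDIP ratio of 3.801 on 3 input reads and 1 on chromosome 17 at 30730001–30731000 with an hMeDIP ratio of 4.38 on 2 input reads. The highest MeDIP ratio was on chromosome 19 at 5274001–5275000, where 299 reads at 800 mM and 19 at 600 mM stood beside 29 MeDIP, 32 hMeDIP and 6 input reads (ratio 3.99 in MeDIP, 2.71 in hMeDIP). A second bin of that chromosome, at 4964001–4965000, had 27 MeDIP reads (ratio 3.76) and 11 hMeDIP reads (ratio 1.33). On chromosome 9 at 30957001–30958000, 26 MeDIP and 35 hMeDIP reads gave ratios of 3.42 and 2.73. On chromosome 4 at 79650001–79651000, 33 of 34 reads at 800 mM lay in 1 step of 100 bp, with 29 MeDIP reads (ratio 3.34) and 11 hMeDIP reads (ratio 1.11). The fifth with at least 5 input reads, on chromosome 11 at 102167001–102168000, held 18 MeDIP reads (ratio 2.90). Of these 5 bins, 4 held 8 to 19 reads at 600 mM, above the set's median of 3.

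The highest hMeDIP ratio was on chromosome 17 at 34249001–34250000, with 70 hMeDIP, 6 MeDIP and 5 input reads (ratios of 5.57 and 1.40) beside 64 reads at 800 mM and 5 at 600 mM. Its flanks were at 2.51-fold in hMeDIP and 1.28-fold in MeDIP. On chromosome 11 at 87793001–87794000, 57 hMeDIP reads gave a ratio of 4.36 and 14 MeDIP reads 2.24. A bin on chromosome 11 at 60678001–60679000 had 51 hMeDIP reads (ratio 4.24) and 10 MeDIP reads (ratio 1.90). The bin of chromosome 1 described above came next under the same minimum. On chromosome 4 at 151704001–151705000, 45 hMeDIP reads gave a ratio of 3.35 and 18 MeDIP reads 2.54. Being the top of a ranking on few input reads, these ratios are a description.

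The bins were spread over all 19 autosomes, at 0.419 per 1000 covered bins. Chromosome 11 had the most, 93 bins or 0.799 per 1000 (0.645 to 0.978), followed by chromosome 7 at 0.569 (0.447 to 0.715) and chromosome 19 at 0.563 (0.385 to 0.795). Chromosome 12 had the fewest per 1000, 25 bins or 0.226 (0.146 to 0.333), then chromosome 18 at 0.247 and chromosome 3 at 0.272. The intervals treat bins as independent, which neighbours are not. The order was not that of the 800 mM eluate as a whole: chromosome 8 was at 1.24-fold over input in this eluate but had 0.299 bins of the set per 1000 (0.209 to 0.414). MeDIP over the bins was below input on each of the 19 chromosomes, at 0.539-fold to 0.935-fold, and the interval stayed below 1 on 18, with chromosome 19 the exception. hMeDIP was highest over the bins of chromosome 17, at 1.45-fold (1.27 to 1.65).

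Along the chromosomes the bins were spread more evenly than the shared bins. The last 10 Mb held 88 bins (9.14%, interval 7.39 to 11.1%), against 7.94% of all covered bins and 20.9% of shared bins. In the last 5 Mb the share was 5.82% (4.42 to 7.49%), against 4.00% of all covered bins and 8.51% of shared bins. The first 10 Mb held 74 (7.68%), against 7.61% of all covered bins. With each chromosome divided into 10 equal parts, a part held 7.79 to 12.8% of the bins, against 5.40 to 25.7% of the shared bins.

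Spacing fell into a close and a wide class. The nearest other bin of the set was adjacent for 219 bins (22.7%) and within 10 kb for 279 (29.0%), while 236 (24.5%) had none within 1 Mb. The median nearest distance was 210 kb. Merging adjacent bins left 843 separate places, of which 744 were single bins, 82 pairs, 14 runs of 3, 2 of 4 and 1 of 5. Of the 120 adjacent pairs, 68 had reads running across their common edge (at least 4 in the steps on both sides), so a single block can count as a pair of bins. The bins lay in 579 of 2417 windows of 1 Mb, and 18 windows held 5 or more. The fullest were on chromosome 4 at 116000001–117000000 with 9 bins, on chromosome 15 at 76000001–77000000 with 8 and on chromosome 10 at 127000001–128000000 with 7.

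**Figure D5:**
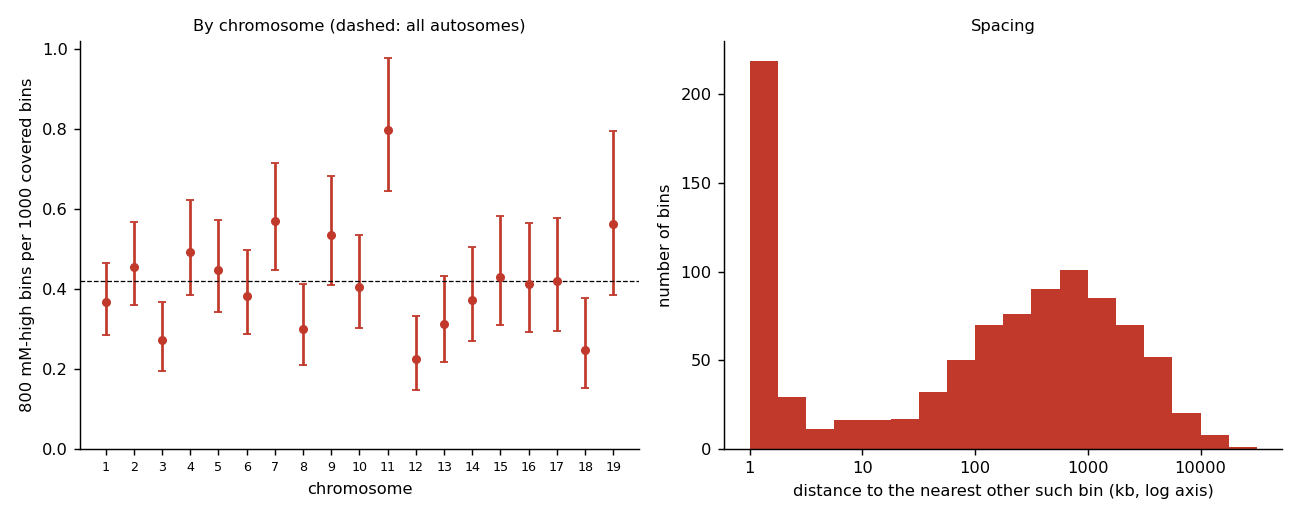
Left, 800 mM-high bins per 1000 covered bins (y axis) on each autosome (x axis), with exact 95% intervals and the autosomal mean as a dashed line. Right, number of bins (y axis) by distance to the nearest other one (x axis, kb, log scale); a tall class at 1 kb (219 bins) stands apart from a broad class that reaches past 1000 kb (236 bins).

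The longest runs were series of small blocks. On chromosome 7 at 67128001–67133000, 5 adjacent bins held 251 reads of the higher-salt and 8 of the lower-salt eluate. There were 9 MeDIP, 15 hMeDIP and 37 input reads. In its second bin all 48 reads of the 800 mM eluate lay in the last 100 bp step, and the other 9 steps were empty. MeDIP over the run was at 0.435-fold of input (0.185 to 0.918) and hMeDIP at 0.409-fold (0.208 to 0.763). On chromosome 1 at 88246001–88250000, 4 bins held 1027 and 6 reads of the eluates. MeDIP was at 0.515-fold (0.292 to 0.868) and hMeDIP was at 1.36-fold (0.978 to 1.90). On chromosome 6 at 51411001–51415000, 4 bins held 336 and 2 reads. MeDIP was at 0.141-fold (0.0550 to 0.302) and hMeDIP was at 0.329-fold (0.208 to 0.505). MeDIP was below input over all 3 runs, and hMeDIP over 2 of them.

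Some features of the reads differed between the set and all bins. No position and strand carried more than 2 reads at 800 mM. In the set 3.89% of the read positions carried 2, against 2.24% in shared bins and 1.34% over all bins. The 800 mM reads per bin also fell in this order, at 94.5, 34.3 and 3.23, and the part of this depth was not tested. The share of 800 mM reads with a 1 in column 4, whose meaning no source used here states, was 11.2% in the set and 8.14% over all bins. In the input it was 7.86% and 8.45%. In shared bins it was 8.50% of the 800 mM reads and 12.9% of the input reads. A share this high was thus also seen in the input of other bins. Among the 800 mM reads it was higher in the set than in shared bins. Without the reads with a 1, 916 bins met the rule, 883 of them among the 963, with a median width of 200 bp, MeDIP at 0.624-fold and hMeDIP at 0.909-fold. With 1 read kept per position and strand, 948 bins met it, 931 of them among the 963, with the same median width, MeDIP at 0.638-fold and hMeDIP at 0.919-fold.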

How the data were processed

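Each line of the deposited files is 1 aligned read (35 bp), whose read count, in column 5, was 1 in every line. Reads were aligned to mm9 with BWA 0.5.8, per the submitters' processing notes. No source used here says how duplicate reads were handled. Over the covered autosomal bins, a position and strand carried at most 1 read in MeDIP, hMeDIP and the input. In both MethylCap eluates it carried at most 2, so this limit differed between the eluates and the other libraries. From the files, reads were placed by their midpoint in 1 kb bins and scaled to 1000000 reads on chromosomes 1 to 19 and X (RPM). Ratios of single bins carry a pseudocount of 0.5 RPM. Folds of summed reads are raw, with exact 95% intervals (Clopper-Pearson on the conditional binomial), which cover counting error alone because, lacking molecular identifiers, reads may repeat a molecule. With 1 library per group there was no replicate and no test. Alternatives changed the pseudocount, ratio threshold, bin offset, scaling, flank length, width rule and the reads kept. The steps were tested on simulated data. The bins, the comparison groups and the shape measures were chosen with earlier results of these data known. The bins named are those at the ends of each ranking (10 by the 800 to 600 mM ratio, 5 by each antibody among bins with at least 5 input reads, 3 by width among bins with at least 50 reads at 800 mM, 3 by run length and distance from the threshold). No gene or sequence is given because no mm9 annotation or genome was used here. Python 3.11.15, numpy 2.4.6 and scipy 1.17.1 were used.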

Additional observations from a re-analysis of the deposited data

Results flagged for a closer look

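A signal in a column that the comparisons do not use differed between the eluates. Of the 800 mM reads in the 963 bins, 11.2% (11.0 to 11.4%) carried a 1 in column 4, against 6.24% (5.50 to 7.05%) of the 600 mM reads and 7.86% (7.36 to 8.39%) of the input reads in the same bins. In the flanks the shares were 8.83%, 6.88% and 8.19%, and in shared bins 8.50%, 8.43% and 12.9%. The column held 0 for every MeDIP and hMeDIP read.

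Chromosome X, which the choice of bins leaves out, also held bins that meet the ratio. There were 53 of them among 142638 covered bins (0.0372%).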

How the results depend on the processing

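With a pseudocount of 0.1 RPM there were 3772 bins (all 963 among them), with MeDIP flanks at 0.972-fold and hMeDIP at 0.843-fold in the bins and 1.09-fold in the flanks. With 1 RPM there were 450 bins, hMeDIP was 0.997-fold in them and MeDIP 0.881-fold in the flanks. At a ratio of 4 there were 2868 bins, with MeDIP at 0.824-fold in the bins and 1.05-fold in the flanks, hMeDIP at 1.04-fold and 1.22-fold, and 44.5% within 10 kb of another. At 16 there were 272 bins, with MeDIP at 0.4999-fold and 0.754-fold, hMeDIP at 0.876-fold and 1.06-fold, and 25.4% within 10 kb. With bins shifted by 500 bp, which recovered 748 of the 963, MeDIP flanks were 0.940-fold and hMeDIP 0.908-fold in the bins. With the median ratio of the eluates set to 1 (830 bins), MeDIP was 0.629-fold in the bins and 0.904-fold in the flanks, and hMeDIP flanks were 1.14-fold. Without column 4 reads, MeDIP was 0.624-fold and hMeDIP 0.909-fold in the bins. MeDIP was 0.876-fold in 2 kb flanks and 0.973-fold in 10 kb flanks, where hMeDIP was 1.17-fold. The median width was 150 bp in 50 bp steps and 700 bp for the stretch with 80% of reads. Within 100 kb of another lay 40.7%, and 5.82% lay in the last 5 Mb. The fold of MeDIP in the bins stayed below input under every alternative run. The cause of the 2 turns of direction at a ratio of 4 was not tested. No paired analysis was possible because each group has 1 library. A bin with no 600 mM read needs 27 reads at 800 mM to enter the set, so weaker bins of this kind are not seen at this depth.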
